A study of Mus musculus with 4 samples.

Results

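Glycolysis and hypoxia-inducible metabolism was followed through 32 genes, named by their function and not by their values, among 24135 gene symbols in 4 RNA-seq libraries of mouse bone marrow-derived macrophages (BMMφ). The genes encode glucose transporters, the enzymes from hexokinase to lactate dehydrogenase, lactate transporters, the gate between pyruvate and mitochondria, and HIF-1α with a few of its classical targets. All 32 were found by symbol. Eno1 was listed at 0 in every library, Vegfa had transcript records without an accepted estimate, and Eno2 stayed under 1 FPKM (fragments per kilobase of transcript, scaled to the mapped reads of a library), which left 29 members for most comparisons.

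The macrophages were the adherent cells left after bone marrow of C57BL/6 mice had been kept for 6 days with GM-CSF at 10 ng/ml. They were wild type (Batf2+/+, WT) or lacked Batf2 (Batf2-/-, KO), a gene for a basic leucine zipper transcription factor. Every culture received IFN-γ at 10 ng/ml for 4 h, so no library shows cells without IFN-γ. LPS, a bacterial cell wall product that activates macrophages, then followed at 100 ng/ml for 0 h or 3 h. Age, sex and the number of mice per library are not given in the labels used here, and GM-CSF cultures of bone marrow can hold other myeloid cells beside macrophages. Each of the 4 groups had 1 library, so no difference below was tested, and the intervals printed with FPKM values and ratios cover the authors' estimation error within a library, not the spread between cultures.

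Batf2 itself was listed at 2.63 FPKM in WT at 0 h, 234.3 in WT at 3 h, 0.26 in KO at 0 h and 10.1 in KO at 3 h, so the KO library was the lower at each time, and transcripts from the locus still increased with LPS in KO. Relative to the WT library at 3 h, sequencing depth was 1.22 in WT at 0 h, 1.39 in KO at 0 h and 1.51 in KO at 3 h. All 9 macrophage markers (such as Csf1r, Cd68 and Lyz2) were above 1 FPKM in every library, and 5 erythroid markers were each below it. Neutrophil markers, 11 of 12 of which could be matched, summed to 3624 FPKM in WT and 9050 in KO at 0 h, and to 5756 and 5468 at 3 h. Stromal markers summed to 33.4 and 75.2 FPKM at 0 h and to 34.5 and 54.5 at 3 h, in the same order.

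Glycolysis splits glucose into pyruvate in the cytosol and yields ATP without oxygen. When pyruvate is reduced to lactate, NAD+ is returned and the pathway can go on at a high rate, which activated macrophages are known for. HIF-1α is a transcription factor whose protein is marked for destruction by oxygen-dependent prolyl hydroxylases. Where it is spared, in hypoxia or in inflammatory activation, it binds a short core sequence at genes of glucose uptake, glycolysis and lactate export.

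Promoter sequence is shown for the 5 members that passed the 2-fold size rule upward after LPS in both genotypes, and for both starts of Pfkfb3, whose transcript records moved in opposite directions; Pfkfb3 was singled out after its values were seen. Sequences are the 250 bases before a RefSeq transcript start in GRCm38.p6, written 5′ to 3′ on the gene's strand. Capitals mark the HIF core motif, searched as ACGTG and GCGTG on both strands, so that matches on the other strand read CACGT and CACGC, and CACGTG is a match on each strand. The Slc2a6 window lies at chr2:27027999-27028248 (minus strand), Hk2 at chr6:82774455-82774704 (minus), Hk3 at chr13:55021386-55021635 (minus, at its upstream start), Pfkp at chr13:6648772-6649021 (minus) and Hif1a at chr12:73907617-73907866 (plus). Pfkfb3 has its upstream window at chr2:11553930-11554179 and its downstream window at chr2:11502091-11502340 (both minus).
Slc2a6: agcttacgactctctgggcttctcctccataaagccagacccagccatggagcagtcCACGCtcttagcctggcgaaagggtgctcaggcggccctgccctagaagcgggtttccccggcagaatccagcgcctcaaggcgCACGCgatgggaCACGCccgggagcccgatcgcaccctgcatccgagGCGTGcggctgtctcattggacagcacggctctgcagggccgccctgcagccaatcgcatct
Hk2: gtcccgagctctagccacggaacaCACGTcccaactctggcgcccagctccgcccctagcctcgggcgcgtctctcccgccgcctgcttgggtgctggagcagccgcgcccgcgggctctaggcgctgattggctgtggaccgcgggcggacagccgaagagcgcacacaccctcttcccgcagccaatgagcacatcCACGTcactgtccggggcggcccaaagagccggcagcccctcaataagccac
Hk3: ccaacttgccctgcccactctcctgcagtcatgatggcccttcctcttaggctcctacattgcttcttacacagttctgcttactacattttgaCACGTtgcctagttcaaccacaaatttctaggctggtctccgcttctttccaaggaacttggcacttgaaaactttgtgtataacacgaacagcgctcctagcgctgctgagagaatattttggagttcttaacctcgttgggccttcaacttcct
Pfkp: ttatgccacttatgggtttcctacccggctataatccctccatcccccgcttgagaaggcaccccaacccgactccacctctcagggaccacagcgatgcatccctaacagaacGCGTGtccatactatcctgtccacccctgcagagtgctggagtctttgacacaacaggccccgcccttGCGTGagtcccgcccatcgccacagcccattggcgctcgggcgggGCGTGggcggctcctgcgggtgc
Hif1a: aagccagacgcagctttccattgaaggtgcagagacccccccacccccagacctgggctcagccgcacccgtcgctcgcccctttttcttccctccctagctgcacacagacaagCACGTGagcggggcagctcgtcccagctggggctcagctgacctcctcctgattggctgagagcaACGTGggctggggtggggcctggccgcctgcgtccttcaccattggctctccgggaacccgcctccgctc
Pfkfb3 upstream start: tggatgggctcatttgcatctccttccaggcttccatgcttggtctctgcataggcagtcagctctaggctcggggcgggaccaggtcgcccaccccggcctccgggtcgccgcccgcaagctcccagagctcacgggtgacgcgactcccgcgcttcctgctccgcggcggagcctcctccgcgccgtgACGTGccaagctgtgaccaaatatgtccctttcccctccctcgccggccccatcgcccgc
Pfkfb3 downstream start: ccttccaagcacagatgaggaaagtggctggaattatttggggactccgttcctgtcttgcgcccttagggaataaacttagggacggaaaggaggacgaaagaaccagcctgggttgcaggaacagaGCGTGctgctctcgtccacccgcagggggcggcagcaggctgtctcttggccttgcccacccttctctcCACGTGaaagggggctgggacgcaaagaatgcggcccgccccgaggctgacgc

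The Slc2a6 window holds 4 matches, Pfkp, Hif1a and the downstream Pfkfb3 window 3 each, Hk2 2, and Hk3 and the upstream Pfkfb3 window 1 each. None of these 7 windows holds the NF-kappaB consensus. Over 31 members with RefSeq promoters, 36 of 45 windows (80%) hold ACGTG or GCGTG, against 38.6% of all 32851 promoter windows of the same length. ACGTG alone is in 42.2% of member windows and 16.6% of all, GCGTG in 53.3% and 28.2%, and CACGTG in 13.3% and 6.02%. The NF-kappaB consensus is in 1 member window, at Vegfa, and in 3.90% of all windows. Member windows were not matched to the others for base content, and GC made up 47.2% (Hk3) to 69.6% (Hk2) of the printed windows. Some members were also listed because they are HIF targets. These are letter matches only, which say nothing of binding in these cells.

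The plot of levels gives all members, and 3 enzymes of the pathway's common trunk led in every library. Aldoa, which splits fructose 1,6-bisphosphate, ranked highest of the 32 genes in all 4 libraries, with 658.1 FPKM in WT at 0 h, 601.0 in WT at 3 h, 687.5 in KO at 0 h and 503.8 in KO at 3 h. Pkm, the pyruvate kinase of the last ATP-yielding step, came next with 550.1, 468.7, 643.0 and 466.9 FPKM in the same order of libraries, which is used from here on. Gapdh, the dehydrogenase that yields NADH, followed with 459.9, 395.6, 518.7 and 370.5 FPKM. On this deposited scale the KO library at 0 h was the highest of the 4 for each of these 3 genes, while after rescaling KO at 3 h was above KO at 0 h for Aldoa (0.20), Pkm (0.18) and Gapdh (0.16). Together the members made up 0.713%, 0.762%, 0.759% and 0.700% of the FPKM in a library.

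**Figure D1:**
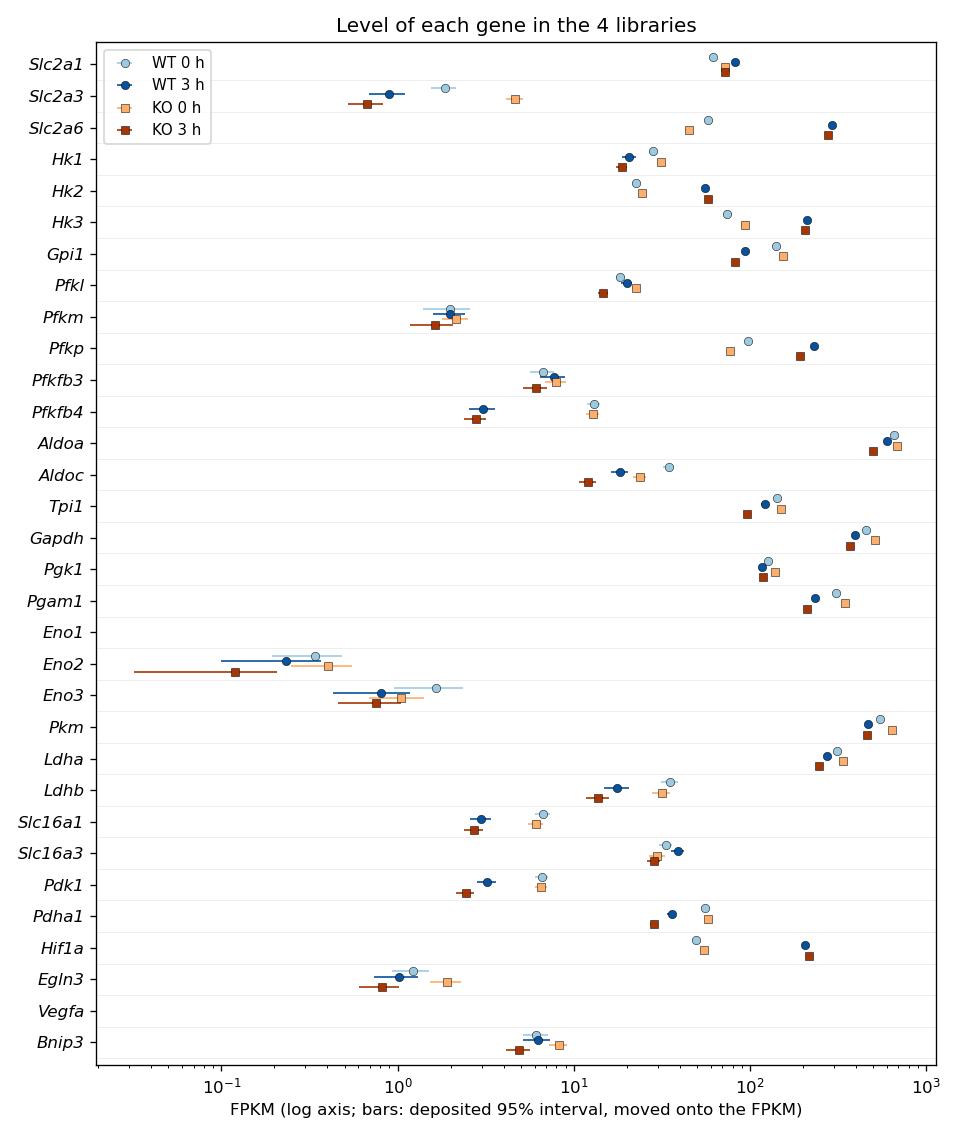
FPKM of each member (log axis) in the WT and KO libraries at 0 h and 3 h of LPS, 1 point per library, with bars for the deposited 95% interval moved onto the FPKM. Aldoa, Pkm and Gapdh lie farthest right in every library, while Eno1 (listed at 0) and Vegfa (records without an accepted estimate) have no points.

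The question of the LPS comparison was how the pathway's transcripts moved within 3 h in each genotype. Of the members, 1 of 3 glucose transporters (Slc2a6), 2 of 3 hexokinases (Hk2 and Hk3), the phosphofructokinase gene Pfkp and Hif1a were higher at 3 h in both genotypes. Among the remaining members Pfkfb4 was lower in both genotypes, and a set of 8 abundant enzymes of the trunk, listed below and without Pfkp, lay between the 2-fold limits. The size rule asked for a shift of 1 or more (2-fold) in log2(FPKM + 1), an FPKM of 1 or more in a compared library, the status OK, and deposited 95% intervals that do not overlap. In WT 5 of 29 members passed upward, where 7.56% of all tested genes did, and 1 passed downward, where 23.2% did. In KO the counts were 5 and 4 members, against 7.85% and 28.0% of all tested genes, so the share of members passing downward was below the background in each genotype and the share passing upward above it.

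The direction of the many small changes depends on the scale. Over all tested genes the median LPS difference, on the log2(FPKM + 1) scale, came to -0.54 (WT) and -0.64 (KO), and the members' medians were -0.19 and -0.48. Of the 29 members, 20 in WT and 16 in KO lay above that all-gene median. When libraries were rescaled by the median ratio over genes, the all-gene medians became -0.07 and -0.08 and the members' medians 0.32 and 0.085. On that scale 11.9% of all genes passed upward and 9.83% downward in WT, and 13.0% and 10.2% in KO. The members that passed were then 5 upward and 1 downward in WT, and 5 upward and 2 downward in KO, in place of 5 and 4.

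Slc2a6, a hexose transporter of lysosomal membranes in macrophages, had the widest upward change of all members. Its level was 58.1 FPKM in WT at 0 h, 294.8 in WT at 3 h, 45.5 in KO at 0 h and 280.4 in KO at 3 h. Both 3 h libraries were thus far above both 0 h libraries, 5.07-fold in WT (95% interval 4.82 to 5.34) and 6.17-fold in KO (5.85 to 6.50). The gene lies at chr2:27021363-27028000 (GRCm38).

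Slc2a1, the widely expressed basal glucose transporter GLUT1, was listed at 62.0, 82.3, 72.6 and 72.4 FPKM. On the log2 scale its difference was 0.40 in WT (0.32 to 0.49) and -0.00 in KO (-0.08 to 0.07), below the 2-fold limit in each. After rescaling it was 0.94 in WT (0.85 to 1.02) and 0.63 in KO (0.56 to 0.71), still below that limit. Slc2a3, the high-affinity transporter GLUT3, was low throughout, at 1.86, 0.89, 4.65 and 0.67 FPKM. The KO library at 0 h was the highest of the 4, and the gene fell 6.89-fold with LPS in KO, a log2(FPKM + 1) difference of -1.75 (-1.94 to -1.57), past the size rule. That call was lost with a pseudocount of 5 or where an FPKM of at least 5 was required. In WT the difference was -0.59 (-0.81 to -0.37), short of the rule, and -0.29 after rescaling.

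Hexokinases trap glucose in the cell by phosphorylation. Hk2, the inducible form that can sit on mitochondria, was listed at 22.6, 55.7, 24.5 and 58.3 FPKM, 2.47-fold higher at 3 h in WT (2.32 to 2.63) and 2.38-fold in KO (2.26 to 2.50). Hk3, a form found mainly in myeloid cells, was listed at 74.8, 210.8, 94.4 and 207.6 FPKM, which is 2.82-fold in WT (2.64 to 3.01) and 2.20-fold in KO (2.08 to 2.32). For both genes the 3 h libraries lay close together and well above the 0 h libraries. The Hk3 window printed above belongs to the upstream start, whose records held 27.0%, 17.7%, 28.6% and 16.5% of Hk3 FPKM, so most of the level at 3 h came from a record with a start downstream of it. Hk1, the constitutive form, was at 28.2, 20.7, 31.3 and 18.9 FPKM, with differences of -0.43 in WT and -0.70 in KO on the deposited scale and 0.09 and -0.09 after rescaling.

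Phosphofructokinase catalyses the committed step, and its 3 subunit genes differed. Pfkp, the platelet-type subunit, was at 97.7, 233.6, 77.0 and 193.9 FPKM and passed the size rule upward, with 2.39-fold in WT (2.30 to 2.48) and 2.52-fold in KO (2.42 to 2.61). Pfkl, the liver-type subunit, was at 18.5, 20.0, 22.7 and 14.7 FPKM, with log2 differences of 0.11 in WT and -0.59 in KO. After rescaling the Pfkl differences were 0.62 and 0.02. Pfkm, the muscle-type subunit, stayed between 1.62 and 2.16 FPKM. At 3 h Pfkp was the most abundant of the 3 in both genotypes, as it was at 0 h.

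Fructose 2,6-bisphosphate, the strongest activator of phosphofructokinase, is made and broken down by the PFKFB enzymes. Pfkfb4 was listed at 13.1, 3.07, 12.9 and 2.79 FPKM and passed the size rule downward, 4.25-fold lower in WT and 4.61-fold lower in KO. Its log2(FPKM + 1) difference was -1.79 in WT (-2.00 to -1.57) and -1.87 in KO (-2.06 to -1.68), so the 3 h libraries of both genotypes sat together below the 0 h libraries. Summed over its records, Pfkfb3 was at 6.66, 7.70, 7.95 and 6.09 FPKM and did not pass.

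The sum for Pfkfb3 hid 2 sets of records with different starts, shown in the plot of start sites. The record that begins at the upstream start (chr2:11553929) was at 4.06, 1.71, 5.56 and 0.87 FPKM, 2.37-fold lower at 3 h in WT (1.88 to 2.98) and 6.41-fold lower in KO (4.97 to 8.27). The 7 records that begin at the downstream start (chr2:11502090) summed to 2.61, 5.98, 2.39 and 5.22 FPKM, 2.30-fold higher in WT (1.74 to 3.02) and 2.18-fold higher in KO (1.67 to 2.84). The upstream record therefore held 60.9% and 69.9% of Pfkfb3 FPKM at 0 h in WT and KO, and 22.3% and 14.2% at 3 h. Hk1 showed a split too: its record with the upstream start was listed at 0 in both 0 h libraries and at 5.83 (WT) and 3.22 FPKM (KO) at 3 h, while the downstream record was at 28.2, 14.9, 31.3 and 15.6 FPKM. Reads that fall in shared exons were divided between records by the authors' model, and a value of 0 can be a failed estimate, so these shares are less certain than gene sums.

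**Figure D2:**
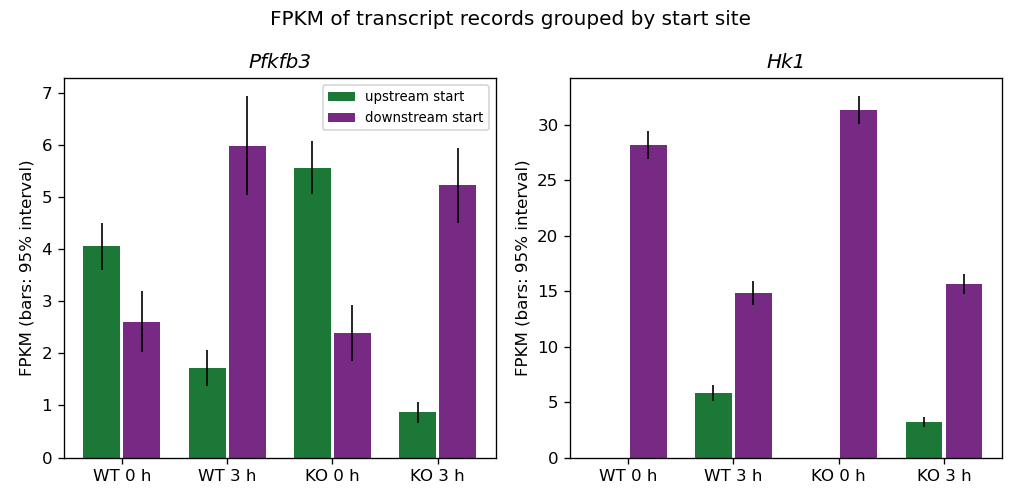
FPKM of Pfkfb3 (left) and Hk1 (right) records in each of the 4 libraries, split by upstream and downstream start, with bars for the 95% interval. For Pfkfb3 the upstream record is the larger at 0 h (4.06 and 5.56 FPKM) and the downstream set the larger at 3 h (5.98 and 5.22 FPKM), and for Hk1 the upstream record is listed above 0 only at 3 h.

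None of a chosen set of 8 abundant enzymes of the path from glucose 6-phosphate to lactate passed the size rule with LPS. The set leaves out Pfkp, an enzyme of the same path at 233.6 (WT) and 193.9 FPKM (KO) at 3 h, which passed upward. The 8 (Gpi1, Aldoa, Tpi1, Gapdh, Pgk1, Pgam1, Pkm and Ldha) summed to 2702, 2308, 2984 and 2097 FPKM. On the deposited scale all 8 were below 0 in each genotype, with medians of -0.22 in WT and -0.47 in KO. After rescaling 7 of the 8 in WT and 5 of the 8 in KO were above 0, with medians of 0.32 and 0.17, so no direction is given for them. Gpi1, which isomerises glucose 6-phosphate, was at 140.7, 93.8, 153.8 and 82.2 FPKM, a difference of -0.58 in WT and -0.90 in KO on the deposited scale and of -0.04 and -0.26 after rescaling.

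Tpi1, which interconverts the triose phosphates, was listed at 143.0, 122.1, 151.6 and 96.8 FPKM. Pgk1, the kinase of the earlier ATP-yielding step, was at 127.2, 117.7, 139.5 and 118.4 FPKM. Pgam1, which moves the phosphate of phosphoglycerate, was at 311.3, 235.8, 349.1 and 210.8 FPKM. On the deposited scale each 3 h library was below the 0 h library of its genotype in these 3 genes, but after rescaling the WT differences were 0.31 for Tpi1, 0.43 for Pgk1 and 0.14 for Pgam1.

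Aldoc, the brain-type aldolase, was at 34.6, 18.3, 23.7 and 12.0 FPKM, and KO was below WT at each time. Its log2 differences with LPS were -0.89 in WT and -0.93 in KO, short of the rule, and -0.37 and -0.32 after rescaling. Among the enolases, which form phosphoenolpyruvate, Eno3 (muscle type) was at 1.65, 0.80, 1.05 and 0.75 FPKM and Eno2 (neuronal type) at 0.34, 0.23, 0.40 and 0.12 FPKM. Eno1, the ubiquitous enolase, was listed at 0 in all libraries. Eno1b, a near-identical copy that is not a member, was listed at 331.2, 229.7, 382.2 and 207.5 FPKM at its own locus, and at 274, 187.5, 313.1 and 168.5 FPKM at the Eno1 locus with a low-data status. Reads of these copies cannot be told apart, so no level is given for Eno1.

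Pkm makes the M1 and M2 forms by choice of exon. The record of the M1 form was assigned 16.2%, 14.5%, 16.3% and 15.6% of Pkm FPKM, nearly the same share in each library. The remainder belonged to the M2 record.

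Ldha, which reduces pyruvate to lactate, was at 311.7, 273.6, 341.0 and 247.1 FPKM. Ldhb, the heart-type subunit, was at 35.3, 17.7, 31.6 and 13.8 FPKM, with log2 differences of -0.96 in WT (-1.23 to -0.68) and -1.14 in KO (-1.39 to -0.88). It passed the size rule in KO, but not when libraries were rescaled (-0.53), with a pseudocount of 5 or with its highest record alone. Slc16a1 (MCT1), a monocarboxylate transporter, was at 6.67, 2.99, 6.13 and 2.73 FPKM, with differences of -0.94 in WT and -0.93 in KO, and of -0.50 and -0.42 after rescaling. Slc16a3 (MCT4), the lactate exporter of glycolytic cells, was at 33.3, 39.1, 29.9 and 28.6 FPKM.

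Pdk1, the kinase that shuts off pyruvate dehydrogenase and is a HIF target, was at 6.60, 3.22, 6.55 and 2.44 FPKM. Its log2 difference was -0.85 in WT (-1.02 to -0.67) and -1.14 in KO (-1.29 to -0.98), so that it passed the size rule in KO alone, and not after rescaling (-0.63) or with a pseudocount of 5. The difference between the responses, -0.29, was itself under the rule. Pdha1, a subunit of the enzyme that Pdk1 inhibits, was at 55.8, 36.0, 58.1 and 28.7 FPKM. Its differences were -0.62 in WT and -0.99 in KO, and -0.09 and -0.36 after rescaling.

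Hif1a, which encodes the regulated HIF-1 subunit, was listed at 49.4, 206.8, 54.9 and 216.9 FPKM. It was 4.19-fold higher at 3 h in WT (4.02 to 4.36) and 3.95-fold higher in KO (3.80 to 4.10), the second widest upward change among the members. Egln3 and Bnip3, both HIF targets, did not pass the rule. Egln3, an oxygen sensor that HIF induces, was at 1.22, 1.02, 1.92 and 0.81 FPKM, and Bnip3, a mitophagy receptor, at 6.14, 6.25, 8.22 and 4.90 FPKM. Vegfa, an angiogenic growth factor, summed over all 9 records to 7.07, 4.30, 12.2 and 5.20 FPKM, but 3 of the records had a low-data status, and the gene entered no comparison.

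**Figure D3:**
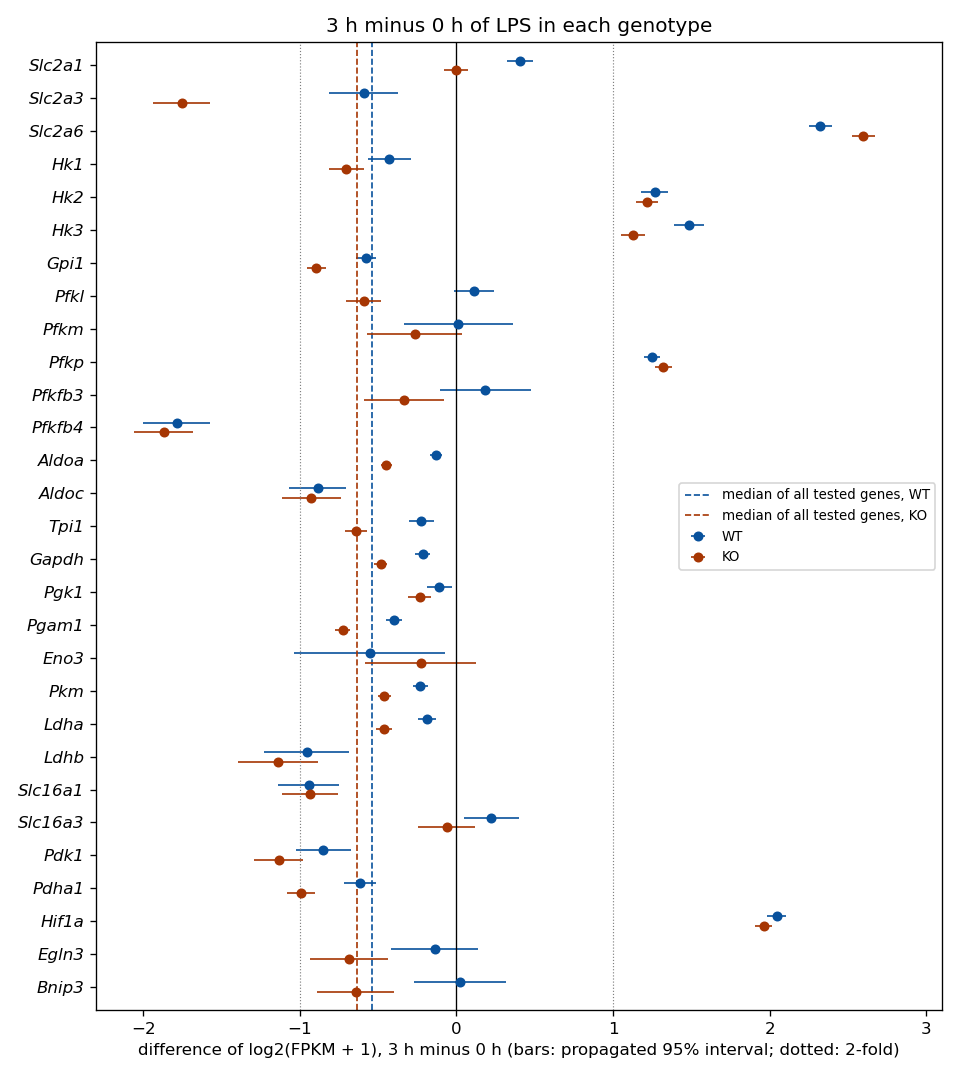
Difference of log2(FPKM + 1) between 3 h and 0 h of LPS in WT and KO for each tested member, with propagated 95% intervals, dotted lines at 2-fold and dashed lines at the median of all tested genes. Slc2a6, Hif1a, Hk3, Hk2 and Pfkp lie beyond 2-fold to the right in both genotypes and Pfkfb4 to the left, with most other members between the dotted lines.

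The genotype comparison asked whether loss of Batf2 altered these transcripts. At 0 h, after IFN-γ alone, no member passed the 2-fold rule, against 1.33% of all tested genes higher and 0.387% lower in KO. With the limit lowered to 1.5-fold, 1 member passed upward (Slc2a3) and none downward, where 3.16% and 1.59% of all genes did. Differences were small and mostly positive: 20 of 29 members were higher in KO, with a median of 0.13 on the log2 scale, where the all-gene median was -0.00 and 49.9% of genes were higher. All 8 abundant enzymes were higher in KO at 0 h, by 0.06 (Aldoa) to 0.22 (Pkm), and also after rescaling, where 1.13% of all genes passed upward and 0.368% downward.

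Slc2a3 differed most, 2.51-fold higher in KO (2.06 to 3.05), a log2(FPKM + 1) difference of 0.98 (0.78 to 1.19) from 1.86 and 4.65 FPKM. Hk3 (0.33), Egln3 (0.39), Bnip3 (0.37) and Pfkl (0.29) were also higher in KO, and Aldoc (-0.53), Slc2a6 (-0.35), Pfkp (-0.34) and Eno3 (-0.37) lower, all under 1.5-fold on that scale. In the same 2 libraries all 11 neutrophil markers were higher in KO, with a median difference of 1.12 and 6 past the 2-fold rule, among them S100a8 at 1838 FPKM in WT and 4545 in KO. All 6 stromal markers were higher in KO as well, with a median of 0.89 and 2 past the rule. Mast cell, basophil and eosinophil markers were higher in 6 of 6 cases (median 0.50, 1 past the rule), and dendritic cell markers lower in 4 of 5 (median -0.60, 1 past the rule). Macrophage markers were higher in KO in 6 of 9 cases (median 0.11, 0 past the rule). The part of these cell types in the members' differences was not tested, and in bulk RNA fewer cells of a type and less RNA per cell cannot be told apart.

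At 3 h of LPS the balance lay the other way. No member of 27 tested passed either limit, where 0.734% of all genes were higher and 0.724% lower by the 2-fold rule and 2.20% and 2.81% by the 1.5-fold rule. On the log2 scale 24 of the 27 were lower in KO, with a median of -0.18 beside an all-gene median of -0.07, and 6 lay above that all-gene median. All tested genes leaned the same way, with 34.4% of them higher in KO beside 11.1% of the members. Rescaling left the median at -0.12, with 22 of 28 below 0, where 0.959% of all genes passed upward and 0.653% downward.

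Aldoc (-0.57), Slc16a3 (-0.43), Pfkl (-0.42), Ldhb (-0.34) and Tpi1 (-0.33) were the lowest in KO, and Hif1a (0.07), Hk2 (0.07) and Pgk1 (0.01) were the 3 above 0. Of the 8 abundant enzymes 7 were below 0, with a median of -0.15, and after rescaling 6 were, with a median of -0.068. Neutrophil markers had a median difference of -0.04 at 3 h, with 3 of 10 higher in KO, and stromal markers one of 0.48, with 5 of 5 higher. Mast cell, basophil and eosinophil markers were higher in 3 of 5 cases (median 0.15), with 1 past the 2-fold rule upward and 2 downward. Dendritic cell markers were higher in 3 of 6 (-0.05), with 1 past the rule downward. Macrophage markers were higher in KO in 7 of 9 cases (median 0.16), with 1 past the rule upward. Their part in the members' values was not tested here either.

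**Figure D4:**
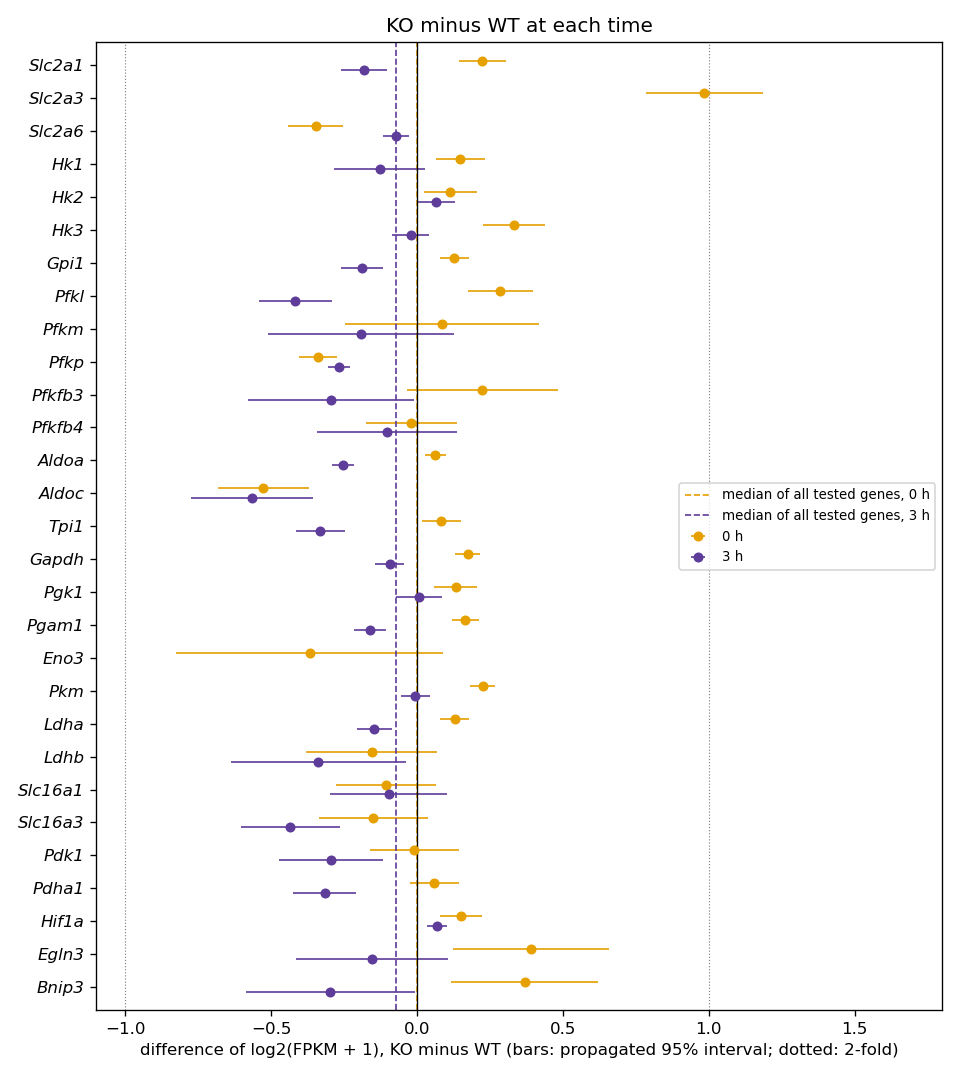
Difference of log2(FPKM + 1) between KO and WT at 0 h and 3 h for each tested member, with propagated 95% intervals, dotted lines at 2-fold and dashed lines at the median of all tested genes. Most 0 h points lie right of 0 and most 3 h points left of it, none reaches a dotted line, and Slc2a3 at 0 h (0.98) lies nearest.

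Set against each other, the LPS responses were lower in KO for 25 of 29 members, with a median difference of -0.28 where the all-gene median was -0.08. All tested genes leaned the same way, with 36.6% of them above 0 beside 13.8% of the members. Slc2a3 alone passed, at -1.16 (-1.45 to -0.88), though not with a pseudocount of 5 or an FPKM limit of 5, against a background of 0.962% of genes upward and 1.51% downward. After rescaling, with 1.14% and 1.34% in the background, 22 of 29 members remained below 0, with a median of -0.19, and Slc2a3 stood at -1.07. All 8 abundant enzymes were below 0 on both scales, with medians of -0.30 and -0.19. Cell type markers differed by type. Below 0 were 11 of 11 neutrophil markers (median -1.21), of which 8 passed the rule downward. Also below 0 were 6 of 6 stromal markers (-0.46, 0 past the rule). Of mast cell, basophil and eosinophil markers 5 of 6 were below 0 (-0.64), with 2 past the rule downward and 1 upward. Above 0 were 4 of 7 dendritic cell markers (median 0.14, 0 past the rule) and 6 of 9 macrophage markers (0.03, 1 past it upward). Their part in the members' values was not tested. Each of these values uses the same 4 libraries as the comparisons above and is no separate evidence.

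The 5 genes that passed upward with LPS differed little in response between genotypes. The difference was 0.28 for Slc2a6 (0.17 to 0.38), -0.35 for Hk3 (-0.48 to -0.23), 0.07 for Pfkp (-0.00 to 0.15), -0.05 for Hk2 (-0.16 to 0.06) and -0.08 for Hif1a (-0.16 to -0.00). For Pfkl the response was lower in KO by -0.70 (-0.87 to -0.54), and for Bnip3 by -0.67.

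Another 71 genes of neighbouring functions were read in the same way. With LPS 2 passed upward in each genotype and 11 of 55 (WT) or 14 of 57 (KO) downward, beside the background shares above. All values of these genes are on the deposited scale, where the all-gene median LPS difference was -0.54 (WT) and -0.64 (KO). After rescaling, 9.83% (WT) and 10.2% (KO) of all genes passed downward. No rescaled value is given for these 71 genes, so their downward calls near the limit are uncertain. Of 22 other glycolytic enzymes and transporters 12 could be tested in each genotype, of which none passed upward (7.56% of all genes in WT and 7.85% in KO) and 4 in WT and 5 in KO passed downward (23.2% and 28.0%). Pfkfb2, a relative of Pfkfb4, was the lowest in both, at -1.58 and -1.66, followed in WT by Bpgm, which makes 2,3-bisphosphoglycerate, at -1.52.

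Other hypoxia-inducible genes were mixed in their LPS response. Adm, which encodes the vasodilator adrenomedullin, was at 0.20, 1.70, 1.85 and 4.99 FPKM. Of the 20 genes 17 in WT and 18 in KO could be tested with LPS, and Adm alone passed upward (1.18 and 1.07). Of all tested genes 7.56% (WT) and 7.85% (KO) passed upward. Adm was also higher in KO than in WT at 0 h (1.26) and at 3 h (1.15), where 1.33% and 0.734% of all genes passed upward. Of the list, 16 of 18 tested genes were higher in KO at 0 h (median 0.19) and 12 of 17 at 3 h (median 0.12). Of all tested genes 49.9% and 34.4% were higher in KO at these times, and of the members 69.0% and 11.1%. Bhlhe40, a transcriptional repressor, passed downward with LPS in WT (-1.57) and Bnip3l, a relative of Bnip3, in WT (-1.08) and KO (-1.15). The Bnip3l values lie near the limit on the deposited scale, and no rescaled value is given.

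Among 6 tested HIF subunits and oxygen sensors outside the members, only Epas1, which encodes HIF-2α, passed with LPS. It passed downward in WT (-1.05) and KO (-1.40), where 23.2% and 28.0% of all genes did. These are values on the deposited scale, and no rescaled value is given. In the pyruvate dehydrogenase group Pdk2 was lower in both (-1.66 and -1.75). Pdk4, a further kinase of that enzyme, was at 0.47, 0.09, 3.27 and 0.19 FPKM, higher in KO at 0 h (1.53) and lower with LPS in KO (-1.84), and its responses differed by -1.40. Of 7 pentose phosphate genes Rpia alone passed, downward in KO (-1.06), near the limit on the deposited scale. Myc, a transcription factor that drives glycolytic genes in proliferating cells, was at 31.2, 3.29, 33.0 and 3.34 FPKM, with -2.91 and -2.97, and Arrdc4, which is induced by glucose-sensing factors and limits glucose uptake, was at 22.8, 63.0, 22.4 and 61.5 FPKM, with 1.43 and 1.42. In both genotypes these last genes gave nearly the same values.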

How the data were processed

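RNA from 4 cultures was sequenced as strand-specific single reads on an Illumina HiSeq instrument, per the labels' protocols. The deposited values are FPKM with a 95% interval and a status for each RefSeq transcript record, computed by the authors with Cufflinks after TopHat2, Bowtie and SAMtools, per the submitters' processing notes. No tool version is given in the sources used here. The notes name mm9, but 64 of 67 member records lay inside their GRCm38 gene, so coordinates are given as GRCm38.

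Each library listed 33841 records. Of these 33437 were named from the RefSeq gene table (GRCm38.p6), 187 from GENCODE, and 217 kept their accession. FPKM was summed over the records of a symbol, and a gene was compared only where all its records had the status OK. Because FPKM lay outside its own interval for 5 or 6 member records per library, each interval was recentred on its FPKM at unchanged relative width. Differences used log2(FPKM + 1), which understates the change of genes near 1 FPKM. The difference between LPS responses, (KO 3 h - KO 0 h) - (WT 3 h - WT 0 h), passed with an absolute value of at least 1 and a propagated interval that excludes 0. Relative depth came from the upper limits of 4670 records listed at 0 in every library. Total FPKM was 466419 (WT 0 h), 469072 (WT 3 h), 476534 (KO 0 h) and 467189 (KO 3 h).

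Python 3.11.15 with pandas 2.3.3 and numpy 2.4.6 was used, and the rule was tested on simulated data. All members were named whatever their values, and of each other list at most the 3 widest genes past the rule per comparison. A gene that qualified is not reported here. The members and lists were chosen with earlier results of these data known. Alternatives were pseudocounts of 0.1 and 5, other FPKM limits, rescaled libraries, the highest record alone and no condition on intervals.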

Additional observations from a re-analysis of the deposited data

Results flagged for a closer look

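For 9 members the KO library was above WT at 0 h and below it at 3 h, with intervals that excluded 0 at each time. These were 9 of 27 members tested at both times (33.3%), beside 276 of 9508 genes (2.90%), and after rescaling 6 of 28 (21.4%) beside 126 of 9702 (1.30%). Intervals are narrow for abundant genes, which many members are, so these shares are not compared at equal precision. With 1 library per group this difference was not tested. On the log2(FPKM + 1) scale the genotype difference at 3 h minus that at 0 h was -0.41 for Slc2a1 (0.22 at 0 h, -0.18 at 3 h), -0.32 for Gpi1 (0.13, -0.19), -0.70 for Pfkl (0.29, -0.42) and -0.32 for Aldoa (0.06, -0.25). For Tpi1 it was -0.42 (0.08, -0.33), for Gapdh -0.27 (0.17, -0.09), for Pgam1 -0.33 (0.16, -0.16), for Ldha -0.28 (0.13, -0.15) and for Bnip3 -0.67 (0.37, -0.30). All 9 kept opposite signs on the rescaled values, and in 6 of them (not Tpi1, Gapdh or Bnip3) both intervals still excluded 0. The neutrophil markers moved the same way, with medians of 1.12 at 0 h and -0.04 at 3 h, and their part in these values was not tested.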

How the results depend on the processing

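Of 100 values recomputed under another setting, 90 stayed within the limits set (counts within 1.5 times, medians of the same sign and within the members' typical interval half-width), 8 moved beyond them and 2 reversed. Within those limits, the members lower with LPS in KO fell from 4 to 3 at an FPKM of at least 5, and rescaling moved the median of KO against WT at 3 h from -0.18 to -0.12. The 5 upward LPS calls (Slc2a6, Hk2, Hk3, Pfkp and Hif1a) and the downward call of Pfkfb4 held under all 8 settings in both genotypes, the setting of the report included. Rescaled libraries gave member medians of 0.32 for LPS in WT and 0.085 in KO, both reversed, and 2 downward calls in KO (Slc2a3 and Pfkfb4). A pseudocount of 0.1 gave 1 member higher in KO at 0 h (Slc2a3), 3 lower with LPS in WT (adding Slc16a1 and Pdk1) and 7 lower with LPS in KO (adding Slc16a1, Pdha1 and Egln3). A pseudocount of 5 left 1 lower with LPS in KO (Pfkfb4) and 0 for the difference between responses, and an FPKM of at least 5 also left 0, since Slc2a3 is below that level in every library. The highest record alone moved the KO median to -0.59. The cause of the other shifts was not tested. No paired analysis was possible because each group had 1 library, and for the same reason no replicate could be left out. Depth limits the genes near 1 FPKM, such as Slc2a3, Pfkm, Egln3 and Eno3.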

Other observations

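Values of other transcript records were as follows. Of the 3 Slc16a3 records, the least abundant was listed at 4.72 FPKM in KO at 0 h, or 15.8% of the gene, and at 0 in the other 3 libraries. The less abundant Ldhb record held 22.9% of Ldhb FPKM in WT at 0 h, 17.1% in WT at 3 h, 27.6% in KO at 0 h and 16.4% in KO at 3 h.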
